A study of Mus musculus with 6 samples.

Results

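Surface antigens used as markers or targets of leukaemia stem cells were followed as 10 genes between wild-type (WT) mice and NHD13 mice. They were chosen by symbol from the deposited count table as Cd34, Cd27, Cd96, Cd93, Cd33, Cd44, Clec12a, Il1rap, Cd47 and Cd99l2, and all 10 were found among its 17523 entries. Bone marrow cells of C57BL/6 mice were purified by FACS, and the series calls them hematopoietic stem cells. The WT group had 3 libraries and no transgene is named for it, and the NHD13 group had 3 libraries from mice with the NUP98-HOXD13 fusion, in the same strain. The fusion joins a nucleoporin to a homeobox protein, and as background, NHD13 mice express it from Vav1 regulatory elements, which are active across blood cells, and develop a myelodysplastic syndrome that can progress to leukaemia. The sources used here do not state the age of the mice, any pooling of animals or the antigens used in the sort, so whether any of these 10 antigens was itself a sorting marker is not known. The labels do not tie libraries to separate animals, so p-values measure the spread between libraries, of which an unknown part may be technical. Xist RNA, given below, differed widely between the NHD13 libraries, so these were not all repeats of the same RNA sample.

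Leukaemia stem cells are the cells of a leukaemia that can start it again in a new host, and they are recognised by combinations of surface proteins rather than by a single one. CD34 is the classical antigen of human blood stem and progenitor cells, and in mice it is low on the most primitive stem cells and present on more committed progenitors. CD33, CLEC12A (also called CLL-1), CD96, IL1RAP, CD93 and CD27 have been described on human acute myeloid leukaemia stem cells, CD44 anchors them in the marrow, and CD47 is the signal that protects cells from being eaten by macrophages. CD99L2 is a relative of CD99, another antigen of such cells.

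The sort label was set against marker genes before the antigens were read. The fusion row held 0 counts in the 3 WT libraries and 167 to 185 in the NHD13 libraries. Total counts ran from 12541538 to 14388772 per library, and values are given in CPM, counts scaled to the library total after TMM adjustment. Markers of long-term stem cells summed to 92.0 to 114 CPM in WT and 75.6 to 81.9 CPM in NHD13. Among them, Procr was at 2 to 7 counts in the WT and 1 to 3 counts in the NHD13 libraries. The 8 genes of granulocyte-monocyte progenitors and primary granules summed to 13838 to 17647 CPM in WT and 9788 to 17632 CPM in NHD13. Mature neutrophil genes summed to 32906 to 50881 CPM in WT and 22475 to 31168 CPM in NHD13. Much RNA of granulocytic cells was thus present, and the antigen levels below cannot be read as those of stem cells alone. NHD13 replicate 1 stood apart from replicates 2 and 3 on the second principal component (28.2 against -9.44 and -14.1), and Xist was at 462 to 1077 CPM in WT but at 2.55, 1.95 and 683 CPM in NHD13 replicates 1 to 3. The Y-linked genes Ddx3y, Eif2s3y, Kdm5d and Uty summed to 109 to 194 CPM in WT and 177 to 279.6 CPM in NHD13, here without TMM adjustment. As background, Xist is transcribed from the inactive X of female cells, and Y-linked genes from male cells. The WT libraries and NHD13 replicate 3 thus held RNA of both kinds, and NHD13 replicates 1 and 2 almost no Xist. The labels used here give no sex. The part of this difference in the results was examined only through a covariate, the Y-linked share. That share went with genotype in part, and Eif2s3y, Kdm5d and Uty were themselves called higher in NHD13, though Ddx3y was not. With so few libraries, the fit with this covariate cannot separate sex from genotype, and the added term costs degrees of freedom. A call lost in it, here or below, is therefore not shown to stem from sex. Log2 changes and counts of calls were refitted with this covariate and without NHD13 replicate 1, though not every refitted value is printed. Marker sums and shares were not recomputed. In bulk RNA, fewer cells that carry an antigen and less RNA in each such cell cannot be told apart.

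Of the 10 antigens, 5 were lower in NHD13 (Cd34, Cd27, Cd96, Cd93 and Cd33), 1 was higher (Cd99l2) and 4 did not pass the test (Cd44, Clec12a, Il1rap and Cd47). The test was edgeR's quasi-likelihood test with Benjamini-Hochberg adjustment over all 12013 genes tested, at an adjusted p under 0.05. Over all tested genes, 15.3% were lower and 15.0% higher, 30.3% in either direction. The median log2 change (NHD13 minus WT) was -0.38 over the 10 antigens and 0.00 over all tested genes. For 7 antigens the libraries of one group all lay beyond those of the other, which held for 46.1% of the tested genes. Of the 5 that fell, 4 (Cd34, Cd27, Cd96 and Cd93) fell at least 2-fold, a fall that 5.66% of tested genes showed at the same threshold. Cd96 reached 10 counts in all libraries of WT alone, where it was high. Its call is a description and adds nothing to these counts as support.

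**Figure D1:**
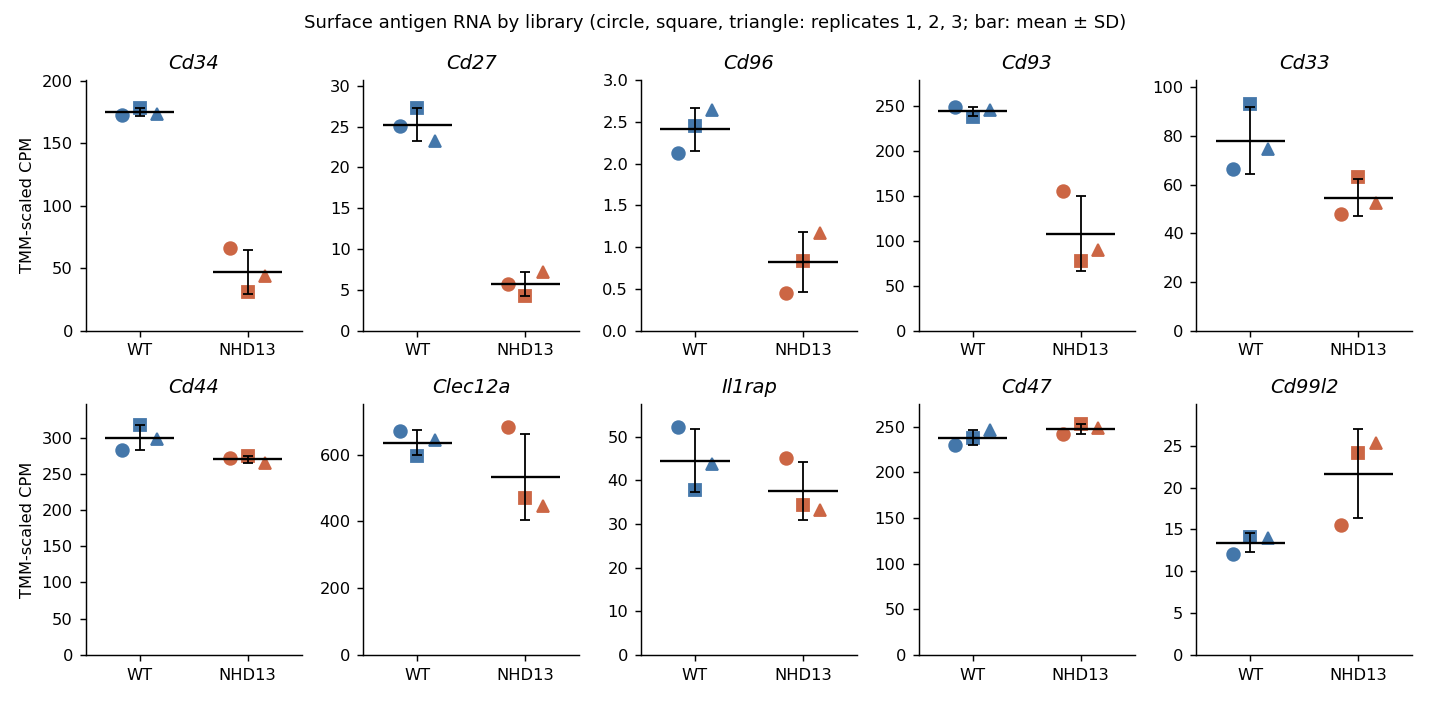
TMM-scaled CPM of each antigen gene in the 3 WT (blue) and 3 NHD13 (orange) libraries, each panel from 0 on its own linear axis; marker shapes are replicates, and bars are the mean ± SD. Cd34, Cd27, Cd96 and Cd93 are separated with NHD13 below WT, Cd47 and Il1rap overlap, and Cd99l2 is separated with NHD13 above WT.

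Cd34, which encodes a sialomucin that modulates adhesion and marks progenitors, lies on mouse chromosome 1 (GRCm38, 194938819 to 194961279, plus strand). Its level was 173, 179 and 174 CPM in WT replicates 1, 2 and 3 and 66.1, 31.1 and 43.9 CPM in NHD13 replicates 1, 2 and 3. The WT libraries were close together (175 CPM ± 3.11, SD, n = 3), and the NHD13 libraries were spread over a wider range far below them (47.0 CPM ± 17.7, n = 3). This was a log2 change of -1.90 (SE 0.22, 95% interval -2.40 to -1.40, edgeR adjusted p = 0.000922). Cd34 was called lower in all 14 alternative fits, with log2 changes of -2.22 to -1.68. An antisense gene, Gm16897, overlaps Cd34 on the other strand and had 4 to 19 counts per library against 447 to 2494 for Cd34.

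Cd27, a receptor of the tumour necrosis factor family that marks early lymphoid-primed progenitors as well as T cells, fell the furthest of the 10. It lies on chromosome 6 (125232622 to 125237010, minus strand). Its level was 25.1, 27.3 and 23.3 CPM in WT replicates 1 to 3 and 5.70, 4.24 and 7.18 CPM in NHD13 replicates 1 to 3. Every NHD13 library was far below every WT library, and NHD13 replicate 1 was between the other NHD13 libraries. The log2 change was -2.14 (SE 0.18, adjusted p = 0.00017), and it stayed between -2.35 and -1.86 in the 14 alternative fits, past the threshold in each. The span of Vamp1, on the opposite strand, contains Cd27, and Vamp1 was at 18.3 CPM ± 1.195 in WT and 16.4 CPM ± 1.43 with NHD13 and did not pass the test (adjusted p = 0.279). Whether the counting used strand is not stated in the sources used here, so this pair may share reads.

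Cd96, an immunoglobulin-family receptor of T and NK cells that was described as an antigen of human leukaemia stem cells, had the lowest level of the 10, by CPM and per kilobase of exons (chromosome 16, 46035657 to 46120251, minus strand). It had 27, 33 and 38 counts in WT replicates 1 to 3 and 6, 12 and 17 in NHD13 replicates 1 to 3, or 98 counts against 35 in all. The groups did not overlap, and the level went from 2.41 CPM ± 0.260 to 0.819 CPM ± 0.362 (n = 3 each). That is a log2 change of -1.54 (SE 0.32, adjusted p = 0.00939). Only the WT libraries all reached 10 counts, so Cd96 was testable through the group in which it was high. Of the markers of T and NK cells, Ncr1 alone was lower among 5 tested. The T cell genes Cd3e, Cd3g and Cd4 were at 2 to 6 counts in each WT library and 4 to 15 in each NHD13 library. Other genes of the list had more counts in most libraries. In WT replicates 1 to 3, Cd3d had 7, 21 and 13, Cd8a 22, 20 and 17, and Lck 33, 85 and 62. In NHD13 replicates 1 to 3, Cd3d had 15, 6 and 12, Cd8a 17, 16 and 22, and Lck 43, 43 and 43. The NK cell genes Ncr1, Klrb1c and Gzma lay lower in NHD13, as Cd96 did. Nkg7 was not past the threshold (log2 -0.34, edgeR adjusted p = 0.304), and its groups overlapped. Ncr1 had 10, 35 and 22 counts in WT replicates 1 to 3 and 1, 1 and 0 in NHD13, and was testable through WT. Klrb1c (9, 41 and 29 against 4, 0 and 6) and Gzma (7, 34 and 22 against 0, 0 and 1) were too low to be tested. The part of NK cells in the change of Cd96 was not tested. The summed level of that list was 191 to 248 CPM in WT and 130 to 237 CPM in NHD13, most of these counts from Nkg7.

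Cd93, a group XIV C-type lectin of early progenitors, monocytes and endothelium that is known as AA4.1 on immature B cells in mice, lies on chromosome 2 (148436640 to 148443563, minus strand). Its level was 249, 238 and 245 CPM in WT replicates 1 to 3 and 156, 77.7 and 90.3 CPM in NHD13 replicates 1 to 3. The groups did not overlap, and NHD13 replicate 1 lay between the WT libraries and the other NHD13 libraries. Cd93 had a log2 change of -1.18 (SE 0.22, adjusted p = 0.00613) over all libraries and -1.54 (SE 0.07) without NHD13 replicate 1. In the fit that adds the share of Y-linked counts, Cd93 was not past the threshold (log2 -1.25, adjusted p = 0.108), nor was Cd96 (log2 -1.08, adjusted p = 0.217).

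Cd33, a sialic-acid-binding Siglec of myeloid cells and the target of the antibody-drug conjugate gemtuzumab ozogamicin in humans, had the smallest of the called falls (chromosome 7, 43524216 to 43544428, minus strand). Its level was 66.3, 93.2 and 74.5 CPM in WT replicates 1 to 3 and 48.1, 63.0 and 52.6 CPM in NHD13 replicates 1 to 3. The highest NHD13 library was just below the lowest WT library. The log2 change was -0.52 (SE 0.14, adjusted p = 0.025), a call that rested on single libraries. Omitting WT replicate 2 gave an adjusted p of 0.09 and omitting WT replicate 3 gave 0.069. It was 0.0521 when NHD13 replicate 1 was omitted, 0.0729 when NHD13 replicate 3 was, and 0.313 with the Y-linked covariate.

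Cd99l2, a membrane protein that takes part in leukocyte passage through vessel walls, was the antigen that rose (chromosome X, 71420060 to 71492849, minus strand). Its level was 12.1, 14.1 and 13.9 CPM in WT replicates 1 to 3 and 15.5, 24.2 and 25.3 CPM in NHD13 replicates 1 to 3. NHD13 replicate 1 was just above the WT libraries and the other NHD13 libraries were well above them. Cd99l2 rose by 0.70 on the log2 scale (SE 0.18, adjusted p = 0.0222) and by 0.89 without NHD13 replicate 1. The call was lost when any one of the other 5 libraries was left out (adjusted p = 0.0698 to 0.0839) and with the Y-linked covariate, where the log2 change was larger and less precise (0.91, adjusted p = 0.118). Cd99l2 is X-linked. NHD13 replicates 1, 2 and 3, with Xist at 2.55, 1.95 and 683 CPM, were at 15.5, 24.2 and 25.3 CPM for Cd99l2. The part of the X chromosome in this change was not tested.

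The promoters of the antigens that fell by more than 1 on the log2 scale are shown beside that of Cd99l2, which rose, so that the sequence at the starts of genes with opposite changes can be compared. Cd93 has no entry in the RefSeq promoter table used, and the other 9 antigens were matched by symbol. Each runs 5′ to 3′ on the strand of the gene, 250 bases before to 50 after the start, in RefSeq's GRCm38.p6. The windows are chr1:194938571-194938870 (plus) for Cd34, chr6:125236978-125237277 (minus) for Cd27, chr16:46120199-46120498 (minus) for Cd96 and chrX:71492800-71493099 (minus) for Cd99l2. Capitals mark matches on either strand to short motifs of blood cell factors and of the core promoter. The letters searched were CAGTTG for MYB and TGTGGT for RUNX. They were GAGGAA for PU.1-type ETS factors and AGATAA for the family of GATA1. They were TTGCNNAA for C/EBP factors and TGATTNAT for HOX-PBX pairs. The box known as CCAAT was searched by its name, and the TATA-box by its letters as TATAAA. Motifs were allowed to overlap.
Cd34: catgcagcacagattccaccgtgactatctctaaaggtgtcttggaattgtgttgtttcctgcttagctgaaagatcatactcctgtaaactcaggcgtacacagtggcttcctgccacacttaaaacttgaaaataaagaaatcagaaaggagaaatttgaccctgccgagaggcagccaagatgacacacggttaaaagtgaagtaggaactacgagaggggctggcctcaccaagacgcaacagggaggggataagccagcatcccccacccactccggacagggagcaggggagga
Cd27: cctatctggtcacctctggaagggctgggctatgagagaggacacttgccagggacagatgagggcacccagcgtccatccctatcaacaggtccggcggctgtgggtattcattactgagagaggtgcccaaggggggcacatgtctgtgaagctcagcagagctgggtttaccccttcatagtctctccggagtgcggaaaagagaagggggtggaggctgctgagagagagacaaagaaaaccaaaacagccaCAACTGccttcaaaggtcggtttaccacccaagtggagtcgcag
Cd96: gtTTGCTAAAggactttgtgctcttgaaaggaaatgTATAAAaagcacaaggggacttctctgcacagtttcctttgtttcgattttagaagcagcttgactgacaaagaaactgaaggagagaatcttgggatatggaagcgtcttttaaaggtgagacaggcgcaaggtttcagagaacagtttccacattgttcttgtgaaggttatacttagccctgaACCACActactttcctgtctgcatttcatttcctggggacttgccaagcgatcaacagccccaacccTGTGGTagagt
Cd99l2: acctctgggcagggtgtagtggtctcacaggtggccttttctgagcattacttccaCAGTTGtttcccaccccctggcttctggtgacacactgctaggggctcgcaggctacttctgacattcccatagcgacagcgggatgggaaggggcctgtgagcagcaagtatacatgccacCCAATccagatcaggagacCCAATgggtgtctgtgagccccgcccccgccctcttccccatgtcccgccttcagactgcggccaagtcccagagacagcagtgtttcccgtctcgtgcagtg
The Cd34 window held no match to these motifs. The Cd27 window held 1 MYB match, whose first base is at 7 after the start. The Cd96 window held 1 C/EBP, 1 TATA box and 2 RUNX matches, and the Cd99l2 window held 1 MYB and 2 CCAAT matches. Over 32544 different promoter windows of the same table, 13.6% hold the MYB motif, 16.7% RUNX, 28.1% PU.1-type ETS, 11.2% GATA, 10.8% C/EBP, 3.23% HOX-PBX, 37.4% CCAAT and 13.6% TATA. The 4 windows thus shared no motif across all of them, and MYB was in one that fell and in the one that rose. CpG dinucleotides numbered 7, 7, 4 and 9 in these windows, against a median of 7 over all. Among the antigens not past the threshold they numbered 35 and 36 at the 2 starts of Cd47 and 33 for Il1rap, but 6 for Cd44 and 3 for Clec12a, so that CpG number did not divide called from uncalled antigens. These matches are a description of the letters in the windows.

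Clec12a, an inhibitory C-type lectin receptor of myeloid cells, had the highest level of the 10, by CPM and per kilobase of exons, and did not pass the test over all libraries (chromosome 6, 129342691 to 129365303, plus strand). Its level was 669.9, 595 and 644 CPM in WT replicates 1 to 3 and 682, 472 and 448 CPM in NHD13 replicates 1 to 3. NHD13 replicate 1 was above all WT libraries and the other NHD13 libraries were below them. The log2 change was -0.25 (SE 0.15, 95% interval -0.59 to 0.08, adjusted p = 0.218). Without NHD13 replicate 1 it was -0.46 (SE 0.06, adjusted p = 6.6e-05).

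Il1rap, the accessory chain that the receptors for IL-1, IL-33 and IL-36 need to signal, was also highest in replicate 1 among the NHD13 libraries (chromosome 16, 26581704 to 26730117, plus strand). Its level was 52.1, 37.7 and 43.7 CPM in WT replicates 1 to 3 and 45.1, 34.3 and 33.1 CPM in NHD13 replicates 1 to 3. The log2 change was -0.25 (SE 0.15, 95% interval -0.59 to 0.09, adjusted p = 0.235), and it was -0.40 (SE 0.12, adjusted p = 0.0189) without NHD13 replicate 1. The gene makes a membrane form and a soluble form of the protein by splicing, and gene counts do not separate them.

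The summed level of genes of granulocyte-monocyte progenitors and primary granules was also highest in replicate 1 among the NHD13 libraries. It was 17647, 13838 and 14336 CPM in WT replicates 1 to 3 and 17632, 9788 and 9836 CPM in NHD13 replicates 1 to 3. Most of the sum was Mpo (9689 of the 17647 CPM in WT replicate 1). Replicate 1 was the highest NHD13 library for every gene of the list but Fcnb, which was at 501, 614 and 597 CPM in WT and 610, 717 and 604 CPM in NHD13. None of the 8 genes passed the test over all libraries. NHD13 replicate 1 was thus level with the highest WT library for this sum and near or above the WT libraries for Clec12a and Il1rap, and the part of the list in these results was not tested. In 6 of the 10 antigens (Cd34, Cd47, Cd93, Clec12a, Il1rap and Cd99l2) NHD13 replicate 1 was the NHD13 library nearest to the WT mean, whereas it was the farthest for Cd33 and Cd96.

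**Figure D2:**
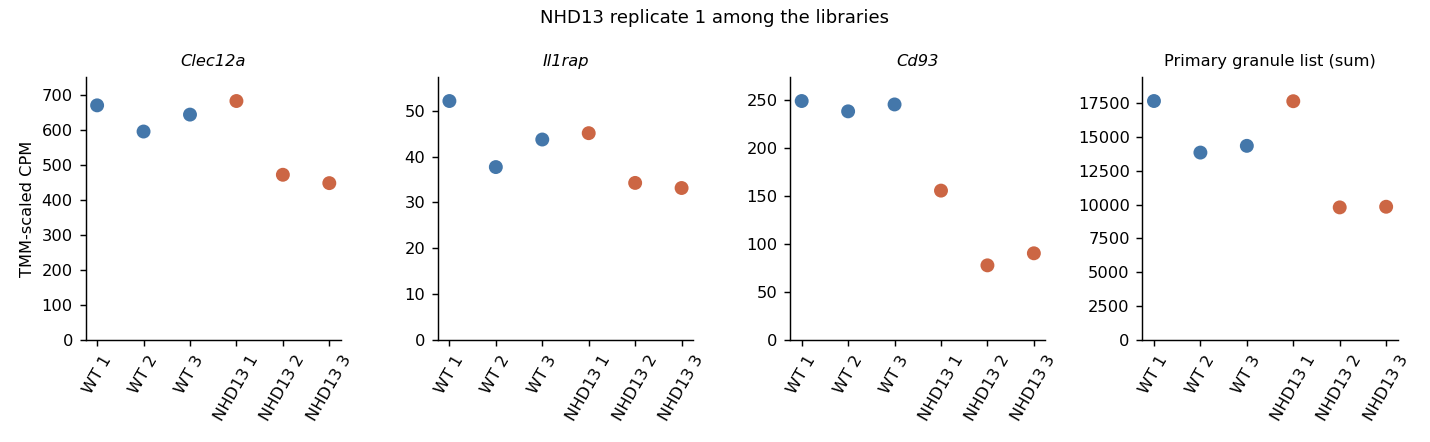
TMM-scaled CPM on linear axes from 0 in each of the 6 libraries (WT blue, NHD13 orange) for Clec12a, Il1rap, Cd93 and the sum of the 8 genes of granulocyte-monocyte progenitors and primary granules. NHD13 replicate 1 is level with WT in the first, second and last panels and between the groups for Cd93.

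Cd44 and Cd47 had the smallest fitted changes of the 10. Cd44, the receptor for hyaluronan that holds progenitors in the marrow, was at 283, 318 and 299 CPM in WT replicates 1 to 3 and 271, 274 and 264 CPM in NHD13 replicates 1 to 3. The groups did not overlap, but the log2 change was only -0.15 (SE 0.06, 95% interval -0.29 to -0.01, adjusted p = 0.1). Cd47, the ligand of the macrophage receptor SIRPA, was at 230, 237 and 246 CPM in WT replicates 1 to 3 and 242, 253 and 248 CPM in NHD13 replicates 1 to 3, and the groups overlapped, with a log2 change of 0.06 (SE 0.06, 95% interval -0.07 to 0.19, adjusted p = 0.46). This interval holds no change larger than 0.19 on the log2 scale in either direction at the 95% level. Cd44 lies on chromosome 2 (102811141 to 102901665, minus strand) and Cd47 on chromosome 16 (49800533 to 49915010, plus strand), and splice forms of Cd44 are not separated by gene counts.

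**Figure D3:**
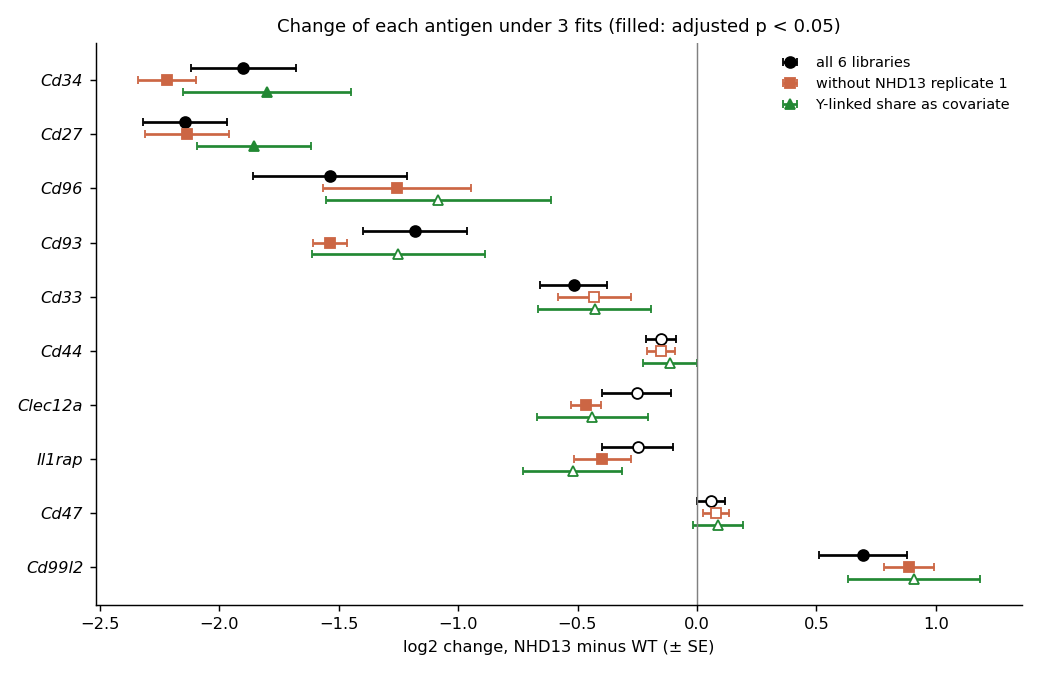
The log2 change (NHD13 minus WT, horizontal axis, bars are SE) of each antigen gene over all libraries (black), without NHD13 replicate 1 (orange) and with the Y-linked share as covariate (green), filled where the adjusted p is under 0.05. Cd34 and Cd27 are filled in all 3 fits, and Clec12a and Il1rap only without NHD13 replicate 1.

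The make-up of the antigens was compared per length, as CPM per kilobase of annotated exons. In WT the order of the levels was Clec12a (115), Cd44 (44.3), Cd47 (37.9), Cd93 (36.6), Cd34 (24.0), Cd27 (10.8), Cd33 (10.04), Il1rap (3.92), Cd99l2 (2.73) and Cd96 (1.104). The neighbours Cd47 and Cd93, and Cd27 and Cd33, overlapped between libraries and the other neighbours did not. In NHD13 Cd27 went from the place 6 to 9 in this order, with Cd33 (7.02), Cd34 (6.45), Cd99l2 (4.42), Il1rap (3.30) and Cd27 (2.45) following Cd93 (16.2). These NHD13 places are not resolved, since each of Cd33, Cd34, Cd99l2 and Il1rap overlapped the next between libraries, as did Cd44 and Cd47. The order depends on the length used. With the longest coding transcript of each gene, a choice made after seeing the data, Cd34 was at place 2 in WT (68.5 CPM per kilobase) and 4 in NHD13 (18.4), and Clec12a was first and Cd96 last in both groups as before.

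Summed over the 10 antigens, the level was 284 to 288 CPM per kilobase in WT and 250.4, 200.3 and 198 in NHD13 replicates 1 to 3. Of this sum, Cd34 took 8.38% ± 0.222 in WT and 2.93% ± 0.753 in NHD13, Cd93 took 12.8% ± 0.184 and 7.32% ± 1.80, and Cd27 took 3.78% ± 0.333 and 1.15% ± 0.359 (SD, n = 3 each). Cd47 took 13.2% ± 0.455 in WT and 18.5% ± 2.69 in NHD13 at a level per kilobase of 37.9 and 39.5, so its larger share came with a smaller sum.

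**Figure D4:**
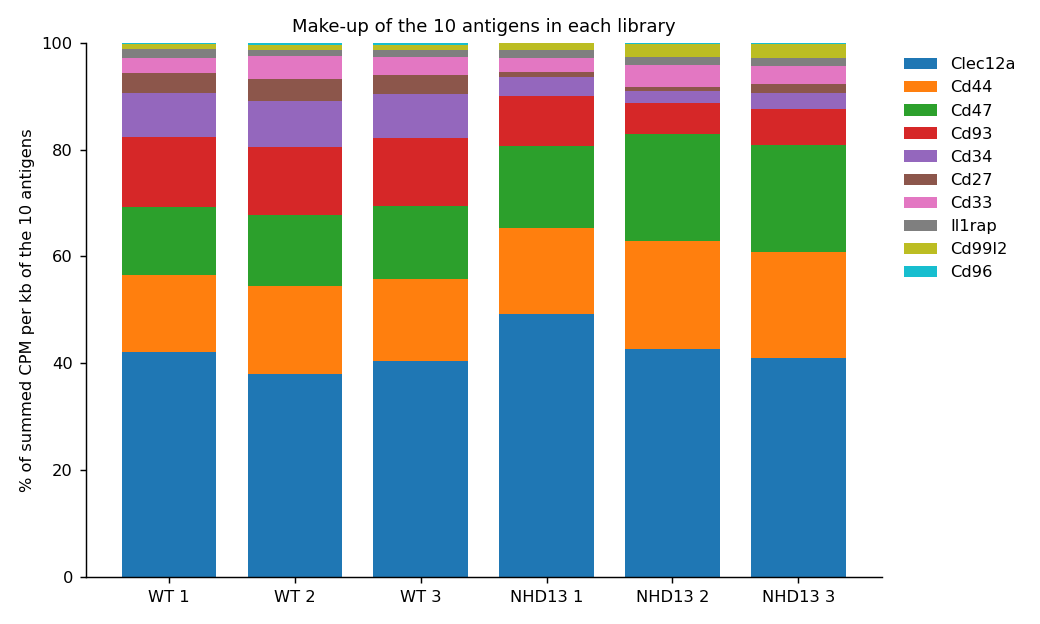
Share of each antigen in the summed CPM per kilobase of the 10 genes (vertical axis, percent) in each of the 6 libraries. The parts of Cd93, Cd34 and Cd27 are smaller in the 3 NHD13 libraries than in the 3 WT libraries, and those of Cd47 and Cd99l2 are larger.

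The partners of the antigens were read from 11 lists. Together they hold 109 tested genes, of which 42 were lower and 5 higher in NHD13, with a median log2 change of -0.26, where 15.3% of all tested genes were lower and 15.0% higher with a median of 0.00. Lists with few tested genes or few calls, such as those around CD27, CD93 and CD96, cannot be read as departing from that background. Slamf7, Qpct, Cd226, Siglech, Cd38 and Klrd1 had fewer than 10 counts in every NHD13 library and could be tested only through WT. Podxl, Cd22, Mmrn1 and Clec9a reached 10 counts in all libraries only of the group in which they were high. The calls of these genes are thus a description. They remain in the counts given here and for the single lists, and add nothing to those counts as support. Of 31 called partner genes taken by the rule for named genes, 6 (Podxl, Spp1, Il1rl2, Clec7a, Csf1r and Mmrn1) were also called with the Y-linked covariate and 25 were not. Among relatives and ligands of CD34 (sialomucins, selectins and an adaptor), 3 of 8 tested genes fell and 1 rose. Podxl, the CD34-family sialomucin podocalyxin, had 8, 13 and 10 counts in WT replicates 1 to 3 and 88, 55 and 89 in NHD13 replicates 1 to 3. The groups were far apart, in the direction opposite to that of Cd34 (log2 2.83, SE 0.31, edgeR adjusted p = 0.000761). Selplg, which encodes the selectin ligand PSGL-1, went down from 219.9 CPM ± 26.0 to 117 CPM ± 17.2 (adjusted p = 0.0016). The sialomucin gene Cd164 fell as well (log2 -0.34), but was not past the threshold when WT replicate 3 (adjusted p = 0.0546) or NHD13 replicate 2 (0.0503) was omitted.

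Of 16 tested genes around IL1RAP, 5 fell and none rose. Il1r1, the IL-1 receptor that pairs with IL1RAP, went from 6.57 CPM ± 0.734 to 2.94 CPM ± 0.591 (log2 -1.16, adjusted p = 0.00478). Il1rl2, the IL-36 receptor chain, fell from 12.99 CPM ± 1.66 to 4.07 CPM ± 0.678 (log2 -1.68, adjusted p = 0.000569), and Sigirr, an inhibitory member of the family, fell by 0.56 on the log2 scale. The IL-33 receptor chain Il1rl1 was at 36.5 CPM ± 2.07 and 49.3 CPM ± 13.1 and was not past the threshold (adjusted p = 0.0937), and the adaptor Myd88 was at 62.6 and 57.9 CPM.

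Around CD47, 5 of 11 tested genes fell and none rose. Slamf7, a receptor on macrophages and lymphocytes, fell from 2.61 CPM ± 1.03 to 0.331 CPM ± 0.0733 (adjusted p = 0.00257). Qpct, a glutaminyl cyclase, fell from 1.84 to 0.339 CPM, while its relative Qpctl, the enzyme that modifies CD47 for binding to SIRPA, was at 12.5 and 11.9 CPM and was not past the threshold. The integrin gene Itgb3 fell by 0.56 on the log2 scale, with an adjusted p of 0.0515 to 0.0565 when WT replicate 2 or 3, or NHD13 replicate 3, was omitted. Of the 13 tested ligands, linkers and proteases of CD44, 3 fell and none rose. Spp1, which encodes the CD44 ligand osteopontin, fell from 7.60 CPM ± 1.46 to 1.56 CPM ± 0.457 (log2 -2.28, adjusted p = 0.000794). The other calls in that list, Mmp9 and the cytoskeletal linker gene Msn (log2 -0.86 and -0.23), each failed when WT replicate 2 or 3, or NHD13 replicate 2 or 3, was omitted, and Mmp9 also when NHD13 replicate 1 was (adjusted p = 0.196) or with no filter on low counts (0.139).

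In the list of Siglecs, the family of CD33, and their adaptors 5 of 8 tested genes fell. Cd22, the Siglec of B cells, fell from 2.60 CPM ± 0.398 to 0.687 CPM ± 0.0108, and Siglech, a marker of plasmacytoid dendritic cells, had 17, 58 and 87 counts in WT replicates 1 to 3 and 0, 3 and 5 in NHD13 replicates 1 to 3. Tyrobp, the adaptor DAP12 of myeloid receptors, fell by 0.64 on the log2 scale (adjusted p = 0.00478). In the list of lectins and phosphatases set beside CLEC12A, whose positions were not compared, 6 of 12 tested genes fell and none rose. Clec7a, encoding the beta-glucan receptor dectin-1, fell from 41.5 CPM ± 7.21 to 18.4 CPM ± 0.961 (log2 -1.17, adjusted p = 0.000806), and Clec2d and Clec5a fell by 0.76 and 0.63.

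Of 5 tested genes listed around CD93, not all of them its relatives or ligands, 2 fell and 1 rose. The group XIV lectin gene Thbd, encoding thrombomodulin, fell from 17.8 CPM ± 0.509 to 7.38 CPM ± 3.55 (log2 -1.28, adjusted p = 0.00925), with 153, 81 and 73 counts in NHD13 replicates 1 to 3. Mmrn1, encoding multimerin-1 of platelets and endothelium, fell by 2.49 and C1qbp rose by 0.49. Around CD96, 2 of 4 tested genes fell. Cd226, its activating counterpart, had 13, 16 and 14 counts in WT replicates 1 to 3 and 2, 1 and 1 in NHD13 replicates 1 to 3 (adjusted p = 0.00163), and Cd200r1 fell by 0.89, a call lost without WT replicate 2 (adjusted p = 0.0567). In CD27 signalling, 1 of 10 tested genes fell, the kinase gene Map3k14 (log2 -0.81, adjusted p = 0.00624), and 1 rose, the receptor gene Tnfrsf14 (log2 0.56), whose call was lost when any library other than NHD13 replicate 1 was left out. None of the 5 tested genes of the CD99 family and its ligands passed the test, and Ppia, which encodes cyclophilin A, was at 1771 and 1713 CPM.

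Of 18 other tested antigens used for leukaemia stem cells, 10 fell and 2 rose. Il3ra, the CD123 chain of the IL-3 receptor, was at 247, 342 and 344 counts in WT replicates 1 to 3 and 162, 137 and 123 in NHD13 replicates 1 to 3. The groups did not overlap (log2 -1.195, SE 0.16, adjusted p = 0.00166). Csf1r, the receptor of macrophage colony-stimulating factor, fell from 123 CPM ± 16.7 to 40.3 CPM ± 9.41 (log2 -1.61, adjusted p = 0.00061). The SLAM-family receptor Cd244 fell by 1.52. Itga4, the integrin chain that binds VCAM1, rose from 352 CPM ± 20.6 to 439.6 CPM ± 19.3 and Cd81, a tetraspanin, from 105 to 131 CPM (both log2 0.32). Cd81 was not past the threshold when WT replicate 1 or 3, or NHD13 replicate 2 or 3, was omitted.

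**Figure D5:**
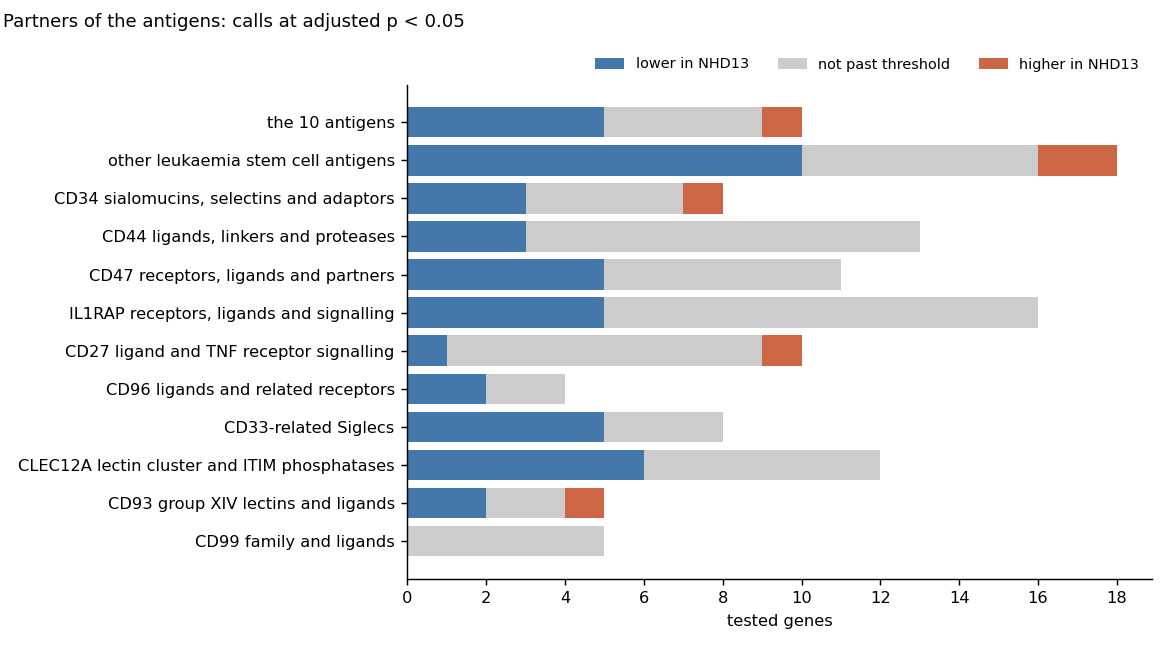
Number of tested genes (horizontal axis) that were lower (blue), not past the threshold (grey) or higher (orange) in NHD13, for the 10 antigens and for each list of their partners. Higher calls number 2 among the other antigens, and 1 each in the lists around CD34, CD27 and CD93. The list labelled CD33-related Siglecs holds Siglecs in general and their adaptors. The label CLEC12A lectin cluster covers genes whose positions were not compared, and the list around CD93 is not limited to its relatives and ligands.

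Markers of several other cell types also differed between the groups, in either direction, and their part in the results above was not tested. Over all tested genes, 15.3% were lower and 15.0% higher. Cd48, Csf1r, Mmp9, Siglech, Clec9a and Emcn are among the genes that stand both in a marker list and in a list of partners. All 8 tested multipotent progenitor markers were lower, with a summed level of 568 to 679 CPM in WT and 296 to 429.96 CPM in NHD13. Monocyte and macrophage genes (6 of 8 tested lower) summed to 908 to 1135 CPM in WT and 264 to 447 CPM in NHD13, and mast cell, basophil and eosinophil genes (9 of 9 lower) to 1371 to 1624 and 176 to 426 CPM. Mature neutrophil genes (8 of 10 lower) summed to 32906 to 50881 CPM and 22475 to 31168 CPM, and dendritic cell genes (6 of 9 lower, 1 higher) to 348 to 485 and 161 to 209 CPM. Erythroid genes (4 of 5 higher) summed to 1420 to 1607 CPM in WT and 1762 to 3090 CPM in NHD13. B-lymphoid genes (2 of 4 tested lower) summed to 20.7 to 30.9 and 13.8 to 17.2 CPM with Ms4a1 at 0 in NHD13. Long-term stem cell markers had 4 lower and 1 higher of 9 tested, and megakaryocyte genes 1 lower and 1 higher of 6 (63.5 to 75.04 CPM and 54.8 to 70.4 CPM), with Gp6 at 0 in WT. Of the endothelial and stromal list 1 of 4 tested was lower, Pecam1, which blood cells also express, and the endothelial gene Cdh5 was at 0 to 5 counts in WT and 0 in NHD13, so that endothelial RNA was at or near 0 in both groups.

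Genes with a pattern like an antigen's were taken by Pearson's correlation of log2 CPM over the 6 libraries, which share the group difference, so that the values are a description. For Cd34 the 3 most alike were Nav1 (r = 0.9995), Tmem176b (0.999) and Dmtf1 (0.999). These had log2 changes of -1.96, -1.31 and -0.13, and r of at least 0.95 was reached by 703 tested genes. For Il1rap they were Dcp2, Snap29 and Clk4 (r = 0.996, 0.992 and 0.992), among 94 genes at that level, and for Cd47 Tceanc and Rpa3 were among the 3 most alike (r = 0.991 and 0.988), of 31 at that level.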

How the data were processed

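The data are RNA libraries of sorted marrow cells, 3 WT and 3 NHD13. The deposited table holds raw counts per gene, not normalised by the authors. Bowtie2 2.2.1 and HTSeq 0.5.4p3 with build mm10 are named in the submitters' processing notes. The sources used here state no annotation, strand setting or read filter. Columns were matched to samples by the initial of the genotype and the replicate number, and 0 columns were left out. No entry lacked a gene name.

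Genes were filtered with filterByExpr (minimum count 10), scaled by TMM and tested in edgeR 4.0.16 (R 4.3.3) with the group as the only term, by the quasi-likelihood F test (robust glmQLFit) with Benjamini-Hochberg adjustment at 0.05. The procedure was tested on simulated data. Standard errors were derived from the log2 change and F, and 95% intervals use the t distribution with the fit's degrees of freedom. A count of 0 allows up to 0.208 to 0.239 CPM at a floor of 3 counts, for counting error only. Replicates differed by more than sampling noise (chi-square per degree of freedom 3.23 or more), so all libraries were kept apart. Alternatives used DESeq2 1.42.0, limma 3.58.1, other scalings, no filter, a replicate block, the share of counts in Ddx3y, Eif2s3y, Kdm5d and Uty as a covariate, and each library left out.

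Positions, overlaps and exon lengths were taken from GENCODE vM21 on GRCm38 (mm10), and promoters from RefSeq's GRCm38.p6. The antigens and the lists of partners and markers were chosen with earlier results of these data known. All antigens are named, and from each list of partners up to 3 called genes per direction ranked by p, or the most abundant one if no gene was called. Other genes named (Gm16897, Vamp1, Qpctl, Sirpa, Ptpn6, Il1rl1, Myd88, Cd38, Klrd1 and single markers) were chosen after their values were seen. Of the genes listed as partners, Cd70, Cd99, Clec14a and Esrp1 were among those not analysed here. Some genes that the rules took are not reported here.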

Additional observations from a re-analysis of the deposited data

How the results depend on the processing

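The log2 changes and counts of calls were recomputed under 14 alternatives. Levels per kilobase were recomputed with another length alone, and shares, marker sums, nearest libraries, promoter matches and correlated genes under none. The counts of antigens (1 higher, 5 lower) were the same with DESeq2, limma-voom, RLE, upper-quartile or total-count scaling and no filter, and upper-quartile scaling moved the median of all genes to -0.04. With the Y-linked covariate 0 antigens were higher and 2 lower (Cd34 and Cd27). In that fit 111 tested genes were higher and 175 lower in place of 1799 and 1839. It has fewer degrees of freedom and cannot separate sex from genotype, so the reason for the lost calls was not tested. Leaving out 1 library at a time gave 0 to 1 higher and 4 to 6 lower antigens, and 760 to 3012 higher and 957 to 2966 lower genes. The highest numbers came without NHD13 replicate 1, where Clec12a and Il1rap were called and Cd33 was not. The cause was not tested. Leaving out a library changes the number of samples as well as the values.

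Same-numbered libraries of the groups deviated together with r = 0.249, 0.0632 and 0.175 for numbers 1, 2 and 3. NHD13 replicates 1 and 3 correlated best with the WT library of their own number. NHD13 replicate 2 correlated better with WT replicate 3 (0.149) than with its own number. These values do not settle whether the numbers pair the samples. The labels do not say that they do, so the main fit had no block. With the replicate block 1 antigen was higher and 5 were lower, the same genes as without it, and 2007 genes were higher and 2233 lower. The depth of 12541538 to 14388772 counts leaves Cd96, at 6 to 38 counts per library, as the antigen with the least precise level.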
